A study of Mus musculus with 31 samples.

Results

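The clustered protocadherin genes lie side by side on mouse chromosome 18, and the Rad21 and NIPBL peaks called over them in B cells are described here. The members are the peaks of all 26 deposited peak lists that overlap chr18:37060001-38030000 of the mm9 genome build, a region of 970 kb chosen by position alone. There are 6354 such peaks among 17061930 in all, 1758 of them in the 16 Rad21 lists and 4596 in the 10 NIPBL lists. Rad21 is a core subunit of the cohesin ring and NIPBL is the protein that loads cohesin and keeps it moving along DNA.

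The series maps both proteins by chromatin immunoprecipitation and sequencing, in a study of cohesin loop extrusion during antibody class switching. All cells are AID-deficient, so they lack the deaminase that starts class switching, and C57BL/6 is given as the strain of all. Mature splenic B cells were stimulated with anti-CD40 and IL-4 for 48 h (3 Rad21 and 3 NIPBL libraries) or left without stimulation (3 and 3). CH12F3 cells, a mouse B lymphoma line used as a model of switching to IgA, were stimulated with anti-CD40, IL-4 and TGF-β for 24 h (4 Rad21 and 2 NIPBL libraries) or left without stimulation (3 and 2). The CH12F3 titles carry the suffix NCdel and a further set of 3 stimulated Rad21 libraries carries the name i3CBEs, neither of which the labels spell out. The i3CBEs libraries give CH12F3 cells as their source and had the same stimulation; how they differ from the other CH12F3 cells is not stated beyond that name. The cell type field of the CH12F3 and i3CBEs Rad21 libraries reads splenic B cells; source and title, which say CH12F3 or i3CBEs, were followed. Nothing in the labels tells whether replicates came from separate mice or cultures, so p-values measure the spread between these libraries, which may be technical. The 5 input libraries are not analysed here.

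Clustered protocadherins are cell-surface adhesion proteins, best known from neurons, where each cell uses a different set of them as an identity tag. The alpha and gamma clusters hold rows of alternative first exons, each with its own promoter, spliced to shared constant exons, while each beta gene is a single exon. In neurons, CTCF bound at many of these promoters and at distant enhancers halts cohesin, and the loops formed this way take part in choosing the promoter that is used. In the RefSeq annotation of GRCm38.p6, a later build used here only for names and order, the clusters run from Pcdha1 to Pcdhac2, then from Pcdhb1 to Pcdhb22, then from Pcdhga1 to Pcdhgc5, with Slc25a2 and Taf7 between the beta and gamma genes and Diaph1 after them. These comprise 14 alpha, 22 beta and 22 gamma genes. No mm9 annotation was used, so peaks are given by position and not assigned to single genes. Neither RNA nor CTCF was measured in the libraries used here, so whether these genes are silent in these B cells, and whether the Rad21 sites hold CTCF, was not tested.

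The deposited lists differ in length, from 42659 to 292078 peaks in 13 of the Rad21 lists, 1166191 to 1236385 in the other 3 (splenic, unstimulated replicate 2 and stimulated replicates 2 and 3), and 890499 to 1332862 in the NIPBL lists. The number of peaks in the region followed the length of the list: 13 to 84 in the shorter Rad21 lists, 388 to 408 in the long ones and 387 to 552 in the NIPBL lists. To set lists side by side, the 20000 peaks with the highest −log10 p of each list were kept, called strong peaks here. Of these, 171 lay in the region. The lists give no read counts, so the depth behind each peak is unknown.

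In number of strong peaks the region was ordinary. Rad21 libraries held 4 to 11 strong peaks in it and NIPBL libraries 2 to 12, while the mean over 2645 windows of the same length was close to 7.5 in every library. The windows next to it were denser, with 12 to 21 strong peaks in the window before and 10 to 19 in the window after. Stimulated splenic Rad21 libraries held 4, 7 and 6 strong peaks, against 7, 7 and 9 in unstimulated ones. i3CBEs libraries held 5, 6 and 4, against 8, 7, 11 and 8 in stimulated CH12F3, whose unstimulated libraries held 6, 7 and 7. NIPBL counts were 8, 9 and 3 in stimulated spleen, against 2, 8 and 6 in unstimulated spleen, and 5 and 12 in stimulated CH12F3, against 6 and 3 in unstimulated CH12F3. Few of these peaks were at the top of their lists: the best Rad21 peak of the region ranked between 1298 and 6476, and 1 peak of any library, in stimulated CH12F3 NIPBL replicate 2, ranked among the first 1000, at 668.

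**Figure D1:**
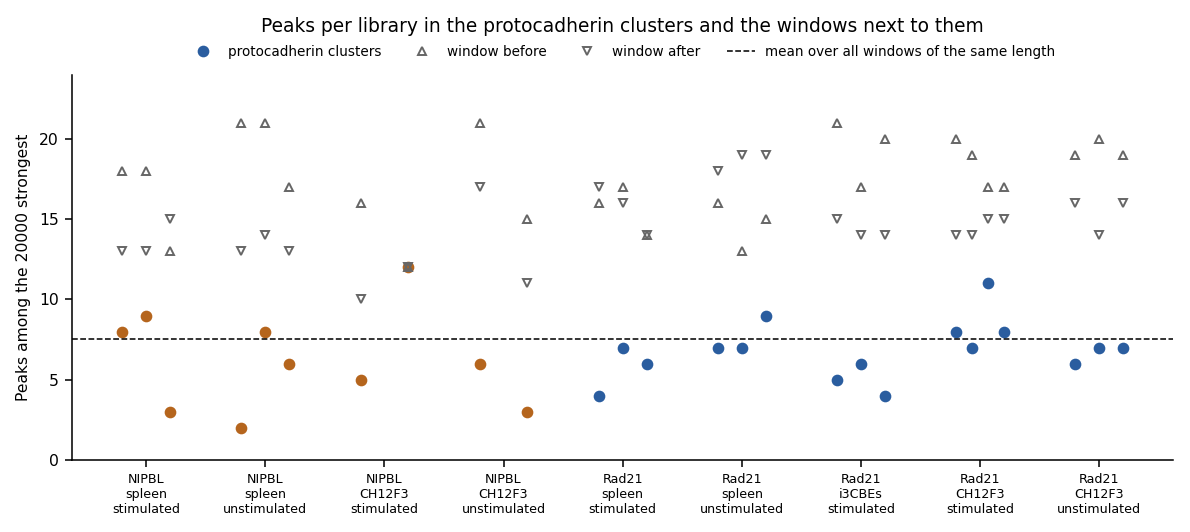
Number of peaks among the 20000 strongest that overlap the protocadherin clusters (filled circles, brown for NIPBL and blue for Rad21) in each of the 26 libraries, with the equally long windows before and after it (open triangles). The dashed line is the mean over 2645 windows; the region sits near it, with 2 to 12 peaks, and the window before holds 12 to 21.

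Within the region the Rad21 peaks were not spread out. The first 582.78 kb held no strong Rad21 peak in any of the 16 libraries, and all 109 strong Rad21 peaks lay in the remaining 387.22 kb. The empty stretch belonged to a gap of 617 kb without a strong Rad21 peak of any library, from 37025366 to 37642780. By count, gaps that long are uncommon but not rare: 399 of the 44858 gaps between Rad21 sites of the genome (0.889%) were as long or longer, where the median gap was 22.1 kb. Such long gaps make up more of the genome's length than of the number of gaps. This one was also taken as the longest of the region. NIPBL had 24 strong peaks in the same stretch and 38 in the rest.

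Weaker Rad21 peaks did lie in the first stretch, in 15 of the 16 lists; i3CBEs replicate 3 had none there. The strong peaks, which the stretch lacks by its definition, are part of the shares that follow. In the 13 shorter Rad21 lists, 0% to 47.2% of the region's deposited peaks fell in the first stretch, which makes up 60.1% of its length. In the 3 long Rad21 lists the share was 54.7%, 55.2% and 57.8%, and in the 10 NIPBL lists 53.4% to 58.3%, a little below the share of length for both antibodies. The 3 long Rad21 lists thus lay within the range of the NIPBL lists, and the 13 shorter ones below it; no NIPBL list is short.

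**Figure D2:**
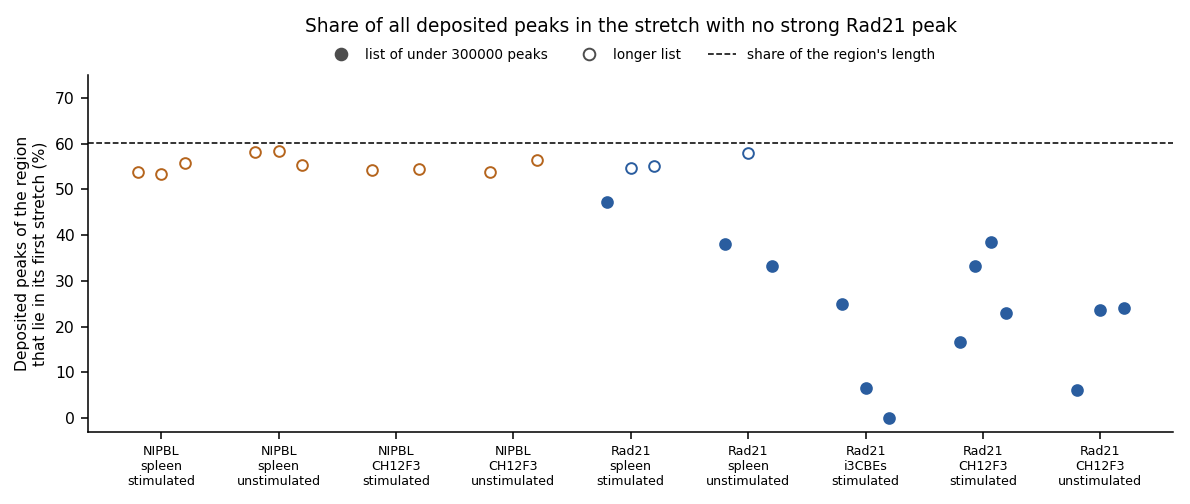
Percent of all deposited peaks of the region that lie in its first 582.78 kb, for each library; filled points are lists of under 300000 peaks, open points longer lists, and the dashed line marks the 60.1% of the length that this stretch makes up. The 13 filled Rad21 points lie between 0% and 47.2%, the 13 open points of both antibodies between 53.4% and 58.3%.

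The strong Rad21 peaks merged into 18 sites (peaks sharing at least 1 base), of which 5 came from a single library. Over the genome 33.4% of 44879 merged Rad21 sites came from a single library, 41.7% were held by 8 or more of the 16 libraries and 19.6% by all 16. In the region 7 of 18 sites (38.9%) were held by 8 or more libraries and 2 (11.1%) by all 16, below the share of the genome in both cases. Those 7 lay in 3 places: a pair at 613 and 618 kb from the start of the region, a row of 4 at 851, 855, 861 and 866 kb, and a single site at 952 kb. The map of strong peaks shows these as shared columns.

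**Figure D3:**
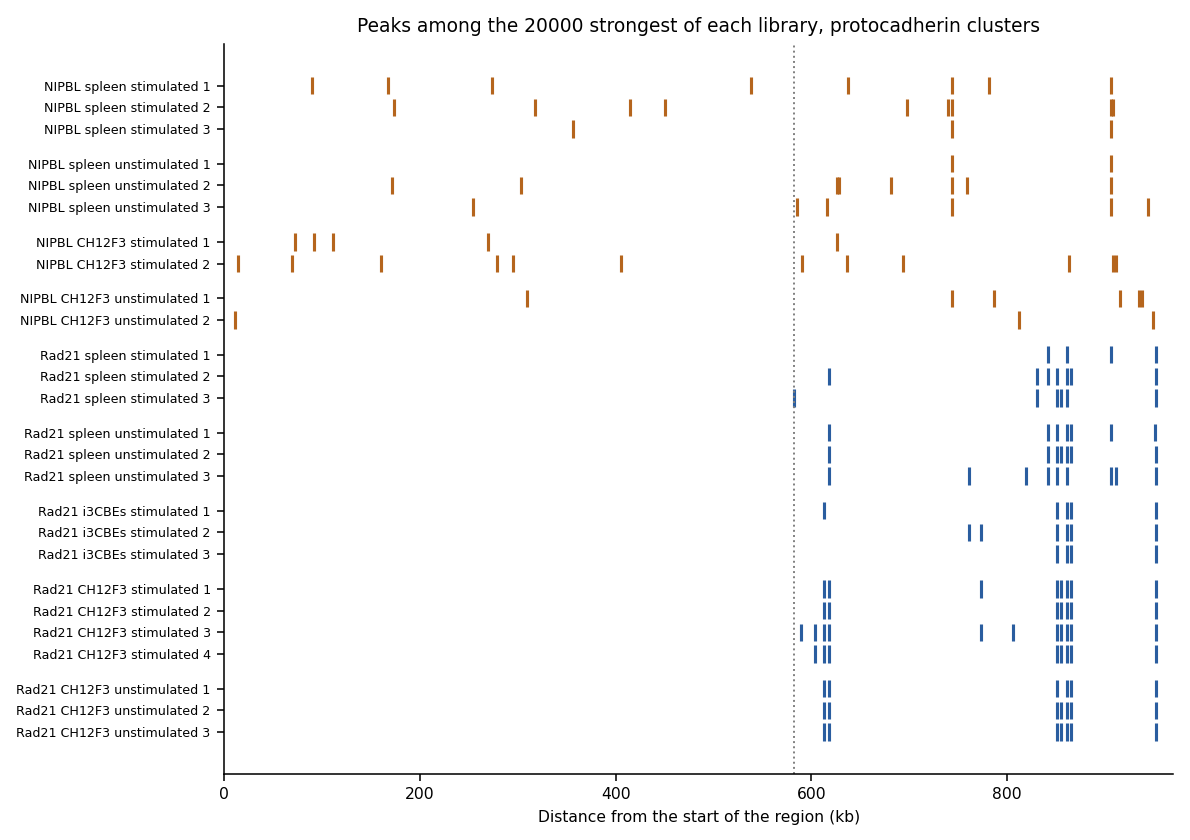
Position of every strong peak of the region in each of the 26 libraries, as distance from the start of the region in kb; brown ticks are NIPBL and blue ticks Rad21, and the dotted line marks 582.78 kb. Rad21 ticks stand in shared columns to the right of that line and nowhere to its left, while most NIPBL ticks have no counterpart in another library.

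The site at 861 kb, chr18:37920801-37921682, was held by all 16 Rad21 libraries. The authors' fold enrichment at its peak was 7.23, 13.6 and 8.88 in stimulated splenic B cells, against 15.5, 14.9 and 5.79 in unstimulated ones. It was 12.1, 12.5 and 11.3 in i3CBEs libraries, against 28.3, 14.0, 17.3 and 13.4 in stimulated CH12F3, and 19.9, 16.1 and 19.4 in unstimulated CH12F3. These values rank a peak within its own list only, since the lists differ in length and in their controls. Its rank was 1635 to 4724 in CH12F3 and i3CBEs lists and 6573 to 12169 in splenic lists.

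The last site, chr18:38011605-38012428 at 952 kb, was also held by all 16 libraries. Its fold enrichment was 8.00, 16.5 and 9.76 in stimulated spleen, against 21.6, 19.2 and 8.89 in unstimulated spleen. In i3CBEs libraries it was 16.0, 11.0 and 14.4, against 28.7, 12.8, 11.5 and 14.0 in stimulated CH12F3, and 14.3, 16.5 and 14.1 in unstimulated CH12F3. It stands 40291 bases after the site before it and was the best-ranked Rad21 peak of the region in i3CBEs replicates 1 and 3, at 1668 and 1298. The same held in stimulated CH12F3 replicate 1 (1929) and unstimulated CH12F3 replicate 2 (3537). It also held in all 3 unstimulated splenic libraries (4147, 4043 and 5150) and in stimulated splenic replicates 1 and 2 (5339 and 5203).

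The other 3 sites of the row were held by 15, 8 and 13 of the 16 libraries. The site at 851 kb, chr18:37910756-37911465, had a strong peak in 15 libraries, and in the remaining one, stimulated spleen replicate 1, its peak ranked 20055, just outside the strong peaks. The site at 866 kb, chr18:37925404-37925947, had one in 13 libraries: all 3 i3CBEs, all 7 CH12F3, 1 of 3 stimulated splenic and 2 of 3 unstimulated splenic ones. With all deposited peaks counted, the sites at 851, 861, 866 and 952 kb were held by all 16 lists. The site at 855 kb, chr18:37915034-37915539, was held by 8 libraries, 4 of 4 stimulated and 2 of 3 unstimulated CH12F3, 1 of 3 splenic libraries in each state, and no i3CBEs library. The 4 sites are 3568, 5261 and 3721 bases apart.

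No site separated stimulated from unstimulated cells. Of the 18 sites, 0 were held by all stimulated and no unstimulated splenic libraries and 0 the reverse (2.19% and 2.99% of all merged sites). In CH12F3 both counts were 0 as well (0.0602% and 0.0758%).

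**Figure D4:**
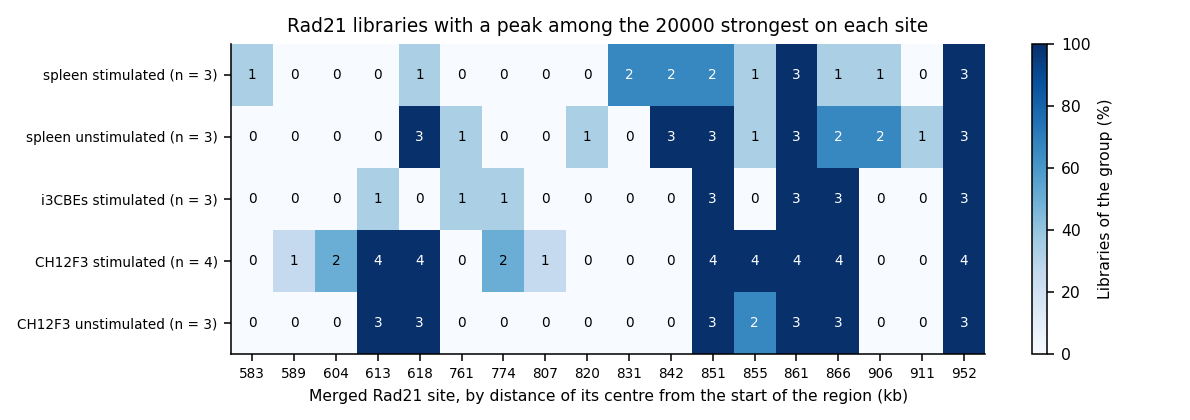
Number of Rad21 libraries of each group with a strong peak on each of the 18 merged sites, ordered by the distance of the site's centre from the start of the region; the colour is the percent of the group's libraries. The sites at 861 and 952 kb are filled in every group, those at 613 and 618 kb in all 7 CH12F3 libraries and in 1 and 0 i3CBEs libraries, and those at 831, 842 and 906 kb in 2 to 5 splenic libraries and no other.

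More sites appeared when weaker peaks were counted in the 13 shorter Rad21 lists, a view added after their lengths were seen. Sites held by at least 7 of the 13 lists numbered 23 in the region, 22 of them after the first 582.78 kb. There were 56441 such sites in the genome, with a mean of 21.2 and a median of 15 per window of 970 kb, and 62.4% of windows held fewer than 23. The gaps between the 22 sites ran from 2.63 to 143 kb, with a median of 8.89 kb. Of the 22 sites, 14 had a strong peak among the 13 shorter lists and 8 had none there. The long Rad21 lists were left out of this count. The site at 831 kb, among those 8, had strong peaks in the long lists of stimulated splenic replicates 2 and 3. In the first stretch 129 of 140 sites were seen in a single list, against 98 of 139 in the rest. Since the first stretch was cut to hold no strong Rad21 peak, these contrasts between the stretches are partly set by the cut.

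All 22 sites were held by 3 of the 7 CH12F3 lists and 21 by each of the other 4. All 7 CH12F3 lists are among the 13 that define these sites, so their high counts are partly set by that choice. i3CBEs lists held 15, 13 and 13 of them, stimulated splenic lists 14, 21 and 20, and unstimulated splenic lists 20, 20 and 14. The i3CBEs lists are 3 of the shorter ones (97738, 53237 and 42659 peaks, against 95464 to 271662 in stimulated CH12F3), so no comparison is made from these counts.

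Spleen and CH12F3 differed at a few of the Rad21 sites. To test this, the percent of each 10 kb stretch (bin) covered by strong peaks was compared between groups over the whole genome with limma, with p-values adjusted over all bins by the Benjamini-Hochberg method and a threshold of 0.05. The bin at 840 to 850 kb, which holds the site chr18:37901310-37901897, was covered in unstimulated spleen by 4.24%, 5.25% and 1.93% and in all 3 unstimulated CH12F3 libraries by 0%, a difference of 3.81 percentage points (SE 0.953, limma adjusted p = 0.0135). Stimulated spleen had 1.84%, 3.78% and 0% there, against 0% in all 4 stimulated CH12F3 libraries, so these groups touched at 0. In CH12F3 the site was present as weaker peaks in all 7 lists, at ranks of 23689 to 74819, so the difference is one of strength within the list, not of presence. It was not called with 40000 or with all peaks of each list or with peaks of a −log10 q of at least 5 (adjusted p = 0.0641, 0.679 and 0.195), and it was not tested with 10000. The 1 bin of the region called with 10000 peaks, at 850 kb, and the 1 called with 40000, at 770 kb, were lower in unstimulated spleen.

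The pair at 613 and 618 kb, chr18:37672985-37673419 and chr18:37677644-37678345, went the other way. All 7 CH12F3 libraries held strong peaks on both, while no splenic library did on the first and 1 of 3 stimulated and 3 of 3 unstimulated ones did on the second. With all deposited peaks, 2 stimulated and 3 unstimulated splenic lists had a peak on the first, at best ranks of 20132 and 26376. The first site was thus weaker in spleen, not absent. The bin that holds the pair was covered in stimulated spleen by 0%, 2.65% and 0%, against 7.24%, 6.13%, 8.77% and 4.53% in stimulated CH12F3. The groups did not overlap and the difference was −5.78 percentage points (SE 1.39, limma adjusted p = 0.0258). In unstimulated spleen it was 3.37%, 5.69% and 1.74%, against 8.33%, 5.22% and 7.18% in unstimulated CH12F3, which overlap. The difference in stimulated cells missed the threshold without stimulated CH12F3 replicate 1 (adjusted p = 0.0692) or 3 (0.0644), and without stimulated splenic replicate 1 (0.0605) or 3 (0.0901), with 10000, 40000 or all peaks per list (0.348, 0.244 and 0.930), with a −log10 q of at least 5 (0.609) and in the fit blocked by replicate number (0.0517). With all deposited peaks the 1 bin called in stimulated cells was that at 900 kb, and without stimulated splenic replicate 1 that at 830 kb, both higher in spleen.

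These calls are few, and the share over all bins or sites is given beside each. For unstimulated cells 1 of the region's 10 tested bins was called higher in spleen and 0 lower, where 13.2% and 9.9% of all 27720 tested bins were called. For stimulated cells 0 were called higher and 1 lower, against 2.53% and 3.67%. Counted by site, unstimulated spleen and unstimulated CH12F3 were split at 2 of the 18 sites. At these, all libraries of one held a strong peak and none of the other did. Spleen held the site at 842 kb and CH12F3 that at 613 kb (5.3% and 7.67% of all merged sites). Both sites had weaker peaks in the other cells. Stimulated cells were split at the site at 613 kb alone, again held by CH12F3 (1.67% of sites in the splenic and 2.85% in the CH12F3 direction).

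With every deposited peak counted, 3 of the 18 Rad21 sites were seen in splenic lists only: those at 583 kb in 1 list, at 911 kb in 2 and at 906 kb in 6. The 3 long Rad21 lists are all splenic, so a count over every deposited peak can favour spleen. The weaker of the 2 peaks at 911 kb ranked 660471, a rank that no shorter list reaches. At the site at 906 kb, chr18:37965744-37966128, the strong peaks came from 1 of 3 stimulated and 2 of 3 unstimulated splenic libraries, at a fold enrichment of 4.94 in the stimulated one and of 8.95 and 5.19 in the unstimulated ones. Its 6 lists are all the splenic Rad21 lists, and none of the 10 CH12F3 and i3CBEs lists held it. It was also the single Rad21 site of the region that overlapped strong NIPBL peaks.

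In i3CBEs cells most of the row was present and the pair was weak. The i3CBEs libraries held strong peaks at 851, 861, 866 and 952 kb in 3 of 3, as did all 4 stimulated CH12F3 libraries. They held none at 618 and 855 kb and 1 of 3 at 613 kb, where all 4 stimulated CH12F3 libraries held peaks. The bin of the pair was covered by 1.12%, 0% and 0% in i3CBEs, against 7.24%, 6.13%, 8.77% and 4.53% in stimulated CH12F3, a difference of −6.29 percentage points (SE 1.10, limma adjusted p = 0.0485). The groups did not overlap, but the call is at the edge of the threshold. It was lost without any one of the i3CBEs replicates (adjusted p from 0.0973 to 0.189) and without stimulated CH12F3 replicate 1, 2 or 3 (0.122, 0.0683 and 0.0774), in the fit blocked by replicate number (0.0733), and with 10000 or 40000 peaks per list (0.395 and 0.184).

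Over all their deposited peaks, i3CBEs lists had one on the site at 613 kb in 3 of 3 libraries, at ranks of 19512 to 27451, and on the site at 618 kb in 2 of 3, at 32423 and 53967. The site at 855 kb had none. Of the region's 6 tested bins, 0 were called higher in i3CBEs and 1 lower, against 0.179% and 0.231% of 22898 bins. By site, 0 of 18 were held by all i3CBEs and no stimulated CH12F3 libraries and 2 the reverse, at 618 and 855 kb (0.285% and 0.488% of all sites). The strong peaks covered 0.173% ± 0.011 of the region in i3CBEs, against 0.321% ± 0.083 in stimulated CH12F3 (SD, n = 3 and 4), groups that did not overlap. Neither did they in 45.2% of all 2645 windows of this length, so such a separation of these groups was common. Their strong peaks reach down to a −log10 p of 6.26 to 7.34, against 7.64 to 17.1 in stimulated CH12F3; the part of this in the result was not tested.

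NIPBL peaks recurred at few places. The 62 strong NIPBL peaks of the region merged into 50 sites, 47 of them from a single library (94%, against 86.5% of 121609 NIPBL sites over the genome), and 2 were held by 5 or more of the 10 libraries. The wider of these was chr18:37965643-37967294 at 906 kb, over the Rad21 site at 906 kb. All 6 splenic libraries held it, as broad peaks of 1404 to 1583 bases, with fold enrichments of 9.73, 7.69 and 12.7 in stimulated spleen, against 10.6, 10.5 and 9.25 in unstimulated spleen. The 4 CH12F3 lists held only weak peaks there, at ranks of 358549 to 482071.

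The bin at 900 to 910 kb gives the same picture as covered length. It was covered by 14.3%, 18.2% and 14.4% in stimulated spleen, against 0% and 1.96% in stimulated CH12F3 NIPBL libraries, a difference of 14.7 percentage points (SE 1.96, limma adjusted p = 0.0106). In unstimulated spleen it was 14.7%, 15.8% and 14.0%, against 0% in both unstimulated CH12F3 libraries, a difference of 14.8 percentage points (SE 1.96, limma adjusted p = 0.0101). In both states every splenic library lay far above every CH12F3 library. This was the only bin of the region's 13 tested that was called between the cell types for NIPBL: 1 higher in spleen and 0 lower in each state, against 2.38% and 1.4% of 30880 bins in stimulated and 1.19% and 0.949% in unstimulated cells. It was not called with 10000 peaks per list, with all deposited peaks or with peaks of a −log10 q of at least 5. Of the 4 CH12F3 lists, the peak names of 2 carry a control and those of the other 2 and of all splenic NIPBL lists carry none. All 4 CH12F3 lists lay at 1.96% or less in this bin. Over the whole genome, strong NIPBL peaks had median widths of 68 and 51 bases in stimulated and 664 and 129 in unstimulated CH12F3. In spleen these were 442, 532.5 and 552 in stimulated and 656, 215 and 254 in unstimulated libraries. The part of these widths in the covered percent was not tested.

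The other recurrent NIPBL site, chr18:37802955-37804235 at 744 kb, had no strong Rad21 peak in any library. All 6 splenic NIPBL libraries and unstimulated CH12F3 replicate 1 held it. Its bin, at 740 to 750 kb, was covered by 4.45%, 6.07% and 10.3% in stimulated spleen, against 6.48%, 8.68% and 5.61% in unstimulated spleen, and by 0% and 0% in stimulated CH12F3, against 10.7% and 0% in unstimulated CH12F3. Counting weaker peaks too, all 10 NIPBL lists had a peak on it, and 8 of the 16 Rad21 lists had a weak one, the best at rank 38744. In the 2 stimulated CH12F3 NIPBL lists it ranked 20286 and 27281, close outside the strong peaks, at fold enrichments of 7.19 to 7.86. In unstimulated CH12F3 replicate 2 it ranked 111231. By site, all libraries of spleen and none of CH12F3 held 2 NIPBL sites in stimulated cells, those at 744 and 906 kb, and 1 in unstimulated cells, that at 906 kb, of 50 (3.11% and 0.903% of all NIPBL sites), and 0 the reverse in either state (0.136% and 0.317%). Stimulation separated 0 of the 50 NIPBL sites in either direction, in spleen (0.387% of all NIPBL sites stimulated only, 0.308% unstimulated only) or in CH12F3 (0.0567% and 0.676%).

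Strong NIPBL peaks seldom overlapped the Rad21 sites of the region, as was so for most Rad21 sites of the genome. None of the 7 Rad21 sites held by 8 or more libraries overlapped a strong NIPBL peak of any library, where 25.6% of 18694 such sites in the genome did. Of all 18 Rad21 sites 1 did (5.56%, against 21.5% of 44879), the site at 906 kb. Each of the 7 Rad21 sites had weak NIPBL peaks, in 3 to 10 of the 10 lists.

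Set against Rad21 in spleen, NIPBL covered 2 of the region's bins more, and in both cell types it covered the bins at 860 and 950 kb less. In stimulated spleen the bin at 900 to 910 kb was covered by 14.3%, 18.2% and 14.4% in NIPBL libraries, against 2.31%, 0% and 0% in Rad21 libraries, a difference of 14.9 percentage points (SE 1.56, limma adjusted p = 3.61e-05). In unstimulated spleen it was 14.7%, 15.8% and 14.0%, against 2.98%, 0% and 3.63% (12.6 percentage points, SE 1.56, limma adjusted p = 0.000117). The bin at 740 to 750 kb was 6.94 percentage points higher for NIPBL in stimulated (SE 1.42, limma adjusted p = 0.00268) and 6.92 in unstimulated spleen (SE 1.42, limma adjusted p = 0.00299), with every Rad21 library at 0%.

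The bin at 860 to 870 kb, which holds 2 sites of the row, was the most covered for Rad21. It was at 0% in all stimulated splenic NIPBL libraries, against 4.88%, 10.2% and 5.04% in Rad21 ones, and at 0% in unstimulated splenic NIPBL libraries, against 12.5%, 9.30% and 4.12% (differences of −6.70 and −8.63 percentage points, limma adjusted p = 0.0179 and 0.00562). In stimulated CH12F3 it was at 0% and 0.51% for NIPBL, against 9.89%, 12.2%, 9.42% and 8.45% for Rad21 (−9.72, SE 1.12, limma adjusted p = 0.000491). In unstimulated CH12F3 it was at 0% in both NIPBL libraries, against 9.58%, 8.99% and 10.6% (−9.71, SE 1.18, limma adjusted p = 0.000536). In none of these cells did the antibodies overlap there.

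The last site behaved alike. The bin at 950 to 960 kb was at 0% in all 10 NIPBL libraries, against 4.30%, 7.16% and 6.86% for Rad21 in stimulated spleen, 5.85%, 6.23% and 3.41% in unstimulated spleen, 4.27%, 4.71%, 4.85% and 3.62% in stimulated CH12F3 and 5.82%, 3.94% and 7.10% in unstimulated CH12F3. All 4 differences were called, from −6.11 to −4.36 percentage points (limma adjusted p from 0.000919 to 0.00403). The bin of the pair at 610 to 620 kb was at 0% for NIPBL in all CH12F3 libraries and was called lower in both states there (−6.67 in stimulated and −6.91 percentage points in unstimulated cells, limma adjusted p = 0.00348 and 0.0036). So was the bin at 850 to 860 kb (−6.36 and −4.92 percentage points, limma adjusted p = 0.00317 and 0.0112). In spleen that bin was at 0% in all NIPBL libraries, against 0%, 4.39% and 6.05% for Rad21 in stimulated cells, which touch at 0 and were not called (−3.48, SE 1.52, limma adjusted p = 0.0791). In unstimulated spleen Rad21 had 5.80%, 7.39% and 2.82% there and the difference was called (−5.34, SE 1.52, limma adjusted p = 0.0154), but not without Rad21 replicate 2 (0.0566).

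By count, NIPBL was called higher than Rad21 in 2 and lower in 3 of 10 bins in stimulated spleen, where 22.3% and 28.8% of 36702 bins were called, and in 2 and 5 of 10 in unstimulated spleen (18.2% and 28.3%). In stimulated CH12F3 it was higher in 1 and lower in 4 of 9 (9.18% and 35.6% of 31304 bins) and in unstimulated CH12F3 in 0 and 4 of 9 (11.4% and 35.8%). The single higher bin in CH12F3, at 270 to 280 kb, rests on 0.28% and 1.56% from peaks at separate positions in the 2 libraries, against 0% in every Rad21 library (limma adjusted p = 0.0271). By site, 2 and 5 of the 18 Rad21 sites in stimulated and unstimulated spleen, and 7 and 6 in CH12F3, were held by every Rad21 and no NIPBL library of the group (25.4%, 25.6%, 30.7% and 31.6% of all Rad21 sites). The reverse was seen at 0 sites in each (2.78%, 0.668%, 1.04% and 1.44%). Of the 50 NIPBL sites, the one at 744 kb was held by every NIPBL and no Rad21 library in both splenic states (5.74% of NIPBL sites in stimulated and 4.43% in unstimulated spleen). Since all 16 Rad21 lists name a control in their peaks and 8 of the 10 NIPBL lists name none, antibody and control cannot be told apart in spleen, and the region's counts are to be read against those shares of all bins. The lower values of NIPBL at 850 to 870 kb turned to higher ones in both cell types when all deposited peaks were used, where differences reached 18.8 percentage points at 860 to 870 kb in stimulated spleen.

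**Figure D5:**
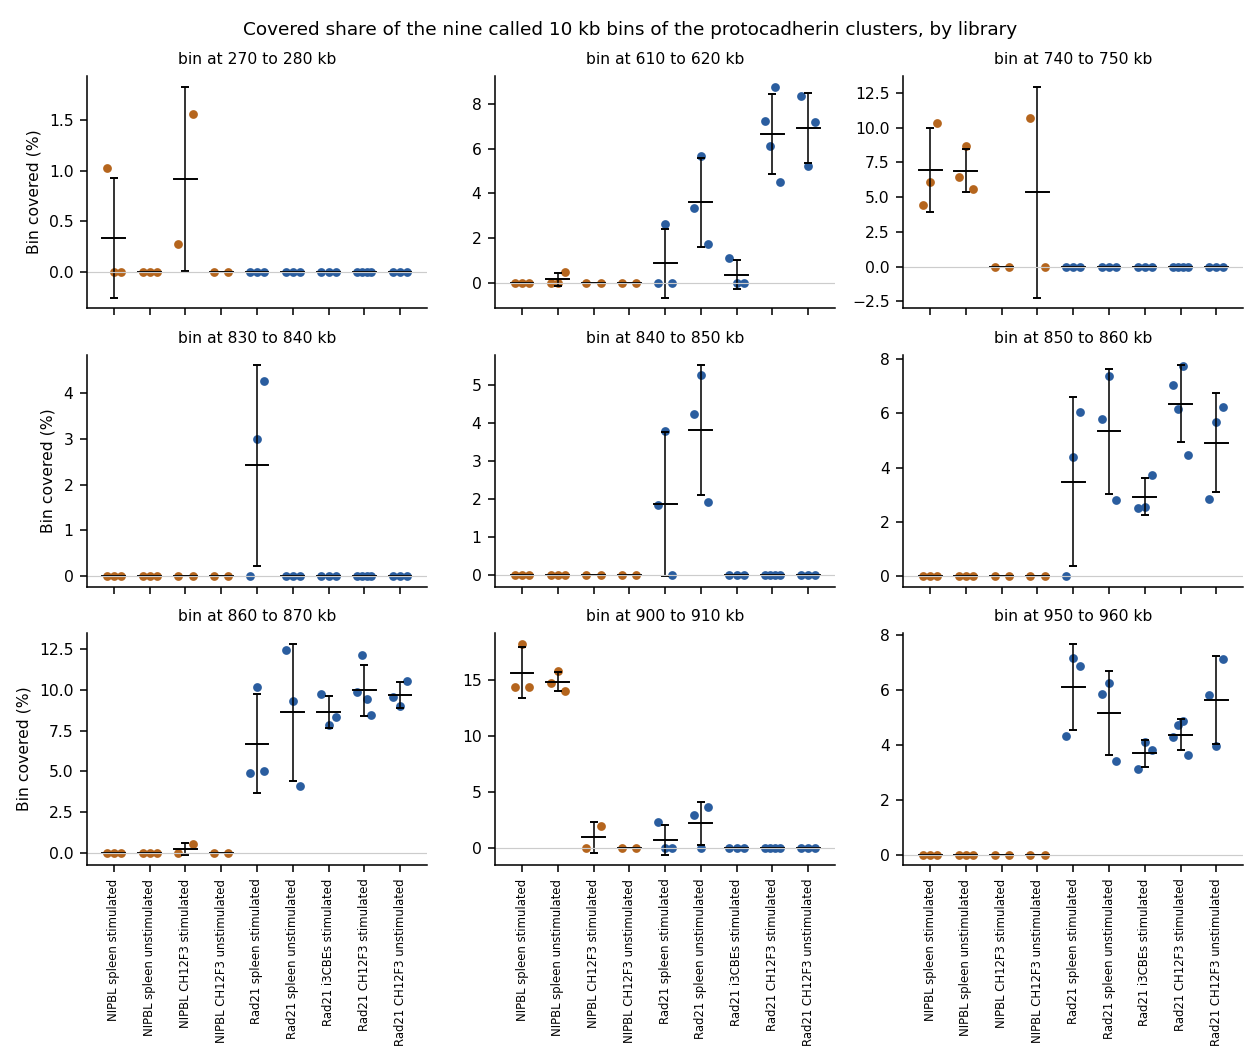
Percent of a 10 kb bin covered by strong peaks, for the 9 bins called in at least 1 comparison; points are libraries, lines means and bars 1 SD over the 2 to 4 libraries of a group, with the bin's distance from the start of the region above each panel. The bin at 900 to 910 kb is high in the 6 splenic NIPBL libraries (14.0% to 18.2%), and the bins at 860 to 870 and 950 to 960 kb are covered in all 16 Rad21 libraries.

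Stimulation changed no bin of the region past the threshold. For Rad21, 0 of 7 tested bins in spleen (0.128% of 22602 bins were called higher and 2.69% lower) and 0 of 6 in CH12F3 (0% higher and 0.0262% lower of 22898) were called by limma. For NIPBL, 0 of 3 in spleen (1.74% higher and 1.24% lower of 18341) and 0 of 3 in CH12F3 (0% and 0% of 12325) were called. At an unadjusted p under 0.05 the count was 0 in each of the 4 comparisons as well. With 2 to 4 libraries per group and few bins tested, these counts do not show that the groups are alike.

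The bins with the smallest p give the size of what was seen. For Rad21 in spleen, the bin at 830 to 840 kb was covered by 0%, 2.99% and 4.27% in stimulated cells, against 0% in the 3 unstimulated libraries, from the site chr18:37890428-37890893 (2.42 percentage points, SE 1.15, limma adjusted p = 0.303). That bin passed the threshold when all 26 libraries shared one estimate of the spread (adjusted p = 0.0114). With weaker peaks counted, all 3 stimulated splenic lists held its site, at ranks of 16444 to 32352. All 3 unstimulated splenic lists held it too, at ranks of 21125 to 25273, just outside the strong peaks. The site was thus not absent without stimulation. The bin of the pair had 0%, 2.65% and 0% in stimulated and 3.37%, 5.69% and 1.74% in unstimulated spleen (−2.72 percentage points, SE 1.41, limma adjusted p = 0.336). In CH12F3 Rad21 the same bin had 7.24%, 6.13%, 8.77% and 4.53% in stimulated and 8.33%, 5.22% and 7.18% in unstimulated cells, which overlap.

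For NIPBL in spleen the bin at 900 to 910 kb averaged 15.6% ± 2.24 with stimulation and 14.8% ± 0.877 without (SD, n = 3 each; 0.80 percentage points, SE 1.56, limma adjusted p = 0.868). The spread between libraries exceeded that difference. Whether the response to stimulation differed between spleen and CH12F3 was tested as an interaction, which called 0 of 13 bins for NIPBL (0.00648% of 30880 bins positive, 0.00324% negative) and 0 of 10 for Rad21 (0.696% and 3.91% of 27720). At an unadjusted p under 0.05 the interaction counts were 0 and 1, the single one being the bin at 830 to 840 kb (2.42 percentage points, SE 1.10). Without stimulated splenic Rad21 replicate 1 that bin was called (3.63 percentage points, limma adjusted p = 0.00617). Without unstimulated CH12F3 NIPBL replicate 2 the NIPBL interaction at 910 to 920 kb was 11.0 percentage points. That fit leaves 1 library in the group, replicate 1, covered there by 11.28% from 1 peak of 1128 bases.

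Summed over the region, strong peaks covered 0.234% ± 0.092 in stimulated and 0.303% ± 0.087 in unstimulated splenic Rad21 libraries (SD, n = 3 each). In CH12F3 Rad21 libraries the values were 0.321% ± 0.083 in stimulated (n = 4) and 0.280% ± 0.038 in unstimulated cells (n = 3). NIPBL covered 0.280% ± 0.043 in stimulated and 0.257% ± 0.053 in unstimulated spleen (n = 3 each), and 0.0782% ± 0.0607 in stimulated and 0.164% ± 0.182 in unstimulated CH12F3 (n = 2 each). In none of the 4 did stimulated and unstimulated libraries separate, as they did in 11.9% of windows for splenic Rad21, 1.55% for CH12F3 Rad21, 22.5% for splenic NIPBL and 22.8% for CH12F3 NIPBL. Stimulated splenic NIPBL lay wholly above stimulated CH12F3 NIPBL. These 2 groups did not overlap, counting either direction, in 66.4% of all windows. Strong peaks of stimulated CH12F3 NIPBL were narrow over the whole genome, with median widths of 68 and 51 bases. Stimulated CH12F3 NIPBL lay wholly below stimulated CH12F3 Rad21, and these did not overlap, counting either direction, in 64.3%.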

How the data were processed

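Libraries were mapped to mm9 with Bowtie2 and peaks called per library with MACS2, per the submitters' processing notes; the sources used here give no versions or settings. The authors deposited 26 broad peak lists. Each peak has a score, a fold enrichment (a ratio), and −log10 p and −log10 q values, all as deposited by the authors; only the fold, the −log10 p and the −log10 q were used. Peak names carry a control for 16 Rad21 and 2 NIPBL lists.

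Of each list the 20000 peaks of highest −log10 p on chromosomes 1 to 19, X and Y were kept (ties by fold, then position). Covered percent of 10 kb bins was fitted with limma 3.58.1 (mean-variance trend, R 4.3.3) over bins covered in 2 or more libraries of the fit, adjusted by Benjamini-Hochberg over all tested bins at 0.05. For the stimulation and i3CBEs comparisons the fit was tested on shuffled values with known differences added. The added differences were larger than those reported here, so the power for smaller ones was not tested. Stimulation was fitted within an antibody and cell type (CH12F3 Rad21 with i3CBEs), cell types and interactions within an antibody, and antibodies within a cell type. Sites are strong peaks of all libraries of an antibody merged at 1 shared base, checked with bedtools 2.31.1. Region, windows of 970 kb and sites are described without tests.

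The members and the bins, sites and tests were chosen with earlier results of these data known. Named bins are, per comparison, up to 5 called ones of largest difference or else up to 2 of smallest p; all Rad21 sites could be named. The stretch of 582.78 kb, the view of the 13 shorter lists and both recurrent NIPBL sites were singled out after their values were seen. Same-numbered stimulated and unstimulated CH12F3 Rad21 libraries deviated together (correlations 0.423, 0.651 and 0.376), and the fit blocked by replicate number also called 0 bins there; other same-numbered libraries did not pair.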

Additional observations from a re-analysis of the deposited data

Results flagged for a closer look

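In 21 group values checked for a single library far from the rest, where chance gives about 1 in 20, 1 stood out: the strong Rad21 peaks of the region had a median width of 248.5 bases in stimulated CH12F3 replicate 4, against 352.5, 373 and 360 in the other stimulated CH12F3 libraries.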

How the results depend on the processing

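The counts of called bins depended on how many peaks of each list were used. With 10000 peaks per list the count was 0 for i3CBEs, for cell type in NIPBL (both states) and for cell type in stimulated Rad21, and 3 for antibody in unstimulated spleen and stimulated CH12F3. With 40000 it was 0 for i3CBEs and 9 and 8 for antibody in stimulated and unstimulated CH12F3. All deposited peaks gave 0 for i3CBEs, for cell type in NIPBL (both states) and in unstimulated Rad21, and for antibody 28 in stimulated spleen, 74 in stimulated and 68 in unstimulated CH12F3 (the NIPBL lists are longer than every CH12F3 Rad21 list). With a −log10 q of at least 5 it was 0 for all 4 cell type comparisons, and for antibody 1 and 3 in stimulated and unstimulated spleen and 24 and 16 in stimulated and unstimulated CH12F3. With 5 kb bins it was 0 for i3CBEs and 2 for cell type in unstimulated Rad21. With all 26 libraries in one fit it was 1 for stimulation in splenic Rad21, 2 for cell type in stimulated NIPBL and in Rad21 (both states), and 8 for antibody in unstimulated CH12F3. The replicate block took i3CBEs and cell type in stimulated Rad21 to 0 and moved no other count by over 1.5 times. Equal counts could hide a turn: for cell type in unstimulated Rad21 the 1 called bin was lower in spleen with 10000 and with 40000 peaks, and in stimulated Rad21 it was higher with all deposited peaks and without stimulated splenic replicate 1. Sites held by all 16 Rad21 libraries numbered 1 with 10000 peaks and 4 with all deposited peaks.

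Leaving out each replicate in turn gave 4 to 5 called bins for antibody in CH12F3 (either state), 3 to 6 in stimulated and 6 to 7 in unstimulated spleen, 0 to 1 for i3CBEs, for cell type in stimulated Rad21 and for both interactions, 1 to 2 for cell type in unstimulated Rad21, 1 to 1 in stimulated and 1 to 3 in unstimulated NIPBL, and 0 to 0 for stimulation.

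The sign of NIPBL minus Rad21 turned with all deposited peaks, in percentage points: in stimulated CH12F3 to 4.92 at 610 kb, 16.0 at 850 kb, 8.72 at 860 kb and 1.13 at 950 kb; in unstimulated CH12F3 to 18.6 at 850 kb, 15.8 at 860 kb and 7.67 at 950 kb; in stimulated spleen to 18.0 at 830 kb and 18.8 at 860 kb (0.550 and 0.727 with a −log10 q of at least 5); in unstimulated spleen to 9.36 at 850 kb, 2.96 at 860 kb and 2.92 at 950 kb. So the antibody contrast at the Rad21 row holds for equal numbers of strong peaks and not for the whole lists. Uncalled differences also turned: the interactions at 780 kb in NIPBL (−1.65, −log10 q) and 840 kb in Rad21 (2.77, all peaks), stimulation in splenic NIPBL at 170 kb (−0.797, −log10 q) and 900 kb (−0.713 with all peaks, −0.492 without stimulated replicate 2), and in CH12F3 Rad21 at 600 kb (−0.585 with 40000 and with all peaks, −0.434 by −log10 q) and 770 kb (−0.203 with 40000 and by −log10 q). The covered percent of the region turned for cell type in stimulated NIPBL (−0.587, −log10 q) and antibody in stimulated CH12F3 (6.90 with all peaks, 1.43 by −log10 q). The cause was not tested.

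The replicate numbers paired no other libraries than those of CH12F3 Rad21. No paired analysis was possible because the titles number only 1 of the 2 libraries in each CH12F3 NIPBL group, for any comparison with those groups. Leaving out a CH12F3 NIPBL replicate leaves 1 library in its group, so counts of called bins from those fits rest on that library. Without read counts, depth cannot be set beside any value.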
